A study of Mus musculus with 2 samples.

Results

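The genes described here are those of the ephrin, semaphorin, slit and netrin guidance systems in mouse embryonic stem (ES) cells with and without induced c-Jun. The rule that takes them uses the gene symbol and no measured value, although the set was proposed with earlier results of these data known. Every row of the expression table named as an Eph receptor, an ephrin, a semaphorin, a plexin, a neuropilin, a Slit, a Robo, an Unc5 receptor or a netrin was taken, which gave 56 of 14261 genes. Among them 19 belong to the ephrin system, 28 to the semaphorin system, 5 to the slit system and 4 to the netrin system. RNA was sequenced from 2 cultures labelled TRE-ESC, both in suspension in low-adsorption dishes for a labelled 36 h, in N2B27 medium with 2i and LIF. One received doxycycline (dox), which commonly serves to induce transgenes under tetracycline control, and the other had none. Neither the transgene construct nor the number of clones is given in the labels, and each group was a single library, so no difference below has a test, an SD or a check against another culture. Values are whole numbers on a scale that the authors appear to have normalized, and the sequencing depth of neither library is known. Jun itself was listed at 55 without dox and 3821 with dox.

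All 4 systems carry signals between cells that steer migration, sorting and adhesion, and they are best known from growing axons and blood vessels. Eph receptors are receptor tyrosine kinases that bind ephrins on the surface of a neighbouring cell, with A-type ephrins held by a lipid anchor and B-type ephrins by a transmembrane segment, and both partners can signal. Semaphorins bind plexins, which act on small GTPases of the Ras family, and the secreted class of semaphorins binds neuropilins as co-receptors. Slits bind Robo receptors, whereas netrins bind Dcc, neogenin and the Unc5 receptors.

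Among members with a value of at least 50 in either library, the largest ratios between the libraries (10 added to each value) were those of Nrp2, Sema7a and Sema4c, all higher with dox. The stretches upstream of their start sites are shown because c-Jun is a subunit of the AP-1 transcription factor, whose classical binding motif lies at many promoters. They come from RefSeq on GRCm38.p6, and each ends where the gene's first annotated exon would begin or earlier. Capitals mark a match to the AP-1 letters TGANTCA, which read the same on both strands. The Sema4c stretch is chr1:36558382-36558631 on the minus strand, and it overlaps an exon of the noncoding gene D430040D24Rik on the opposite strand. The Sema7a stretch is chr9:57939862-57940111 and the Nrp2 stretch chr1:62703067-62703284, both on the plus strand and outside annotated exons.
Sema4c: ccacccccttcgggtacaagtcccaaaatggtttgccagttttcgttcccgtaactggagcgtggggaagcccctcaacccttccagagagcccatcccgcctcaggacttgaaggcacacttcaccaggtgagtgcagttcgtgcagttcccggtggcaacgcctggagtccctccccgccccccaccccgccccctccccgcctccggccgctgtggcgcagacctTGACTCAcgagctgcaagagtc
Sema7a: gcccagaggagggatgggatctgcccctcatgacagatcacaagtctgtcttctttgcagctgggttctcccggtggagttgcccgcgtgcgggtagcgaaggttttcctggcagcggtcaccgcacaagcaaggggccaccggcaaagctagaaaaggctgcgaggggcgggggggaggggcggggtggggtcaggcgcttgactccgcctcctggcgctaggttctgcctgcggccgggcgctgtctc
Nrp2: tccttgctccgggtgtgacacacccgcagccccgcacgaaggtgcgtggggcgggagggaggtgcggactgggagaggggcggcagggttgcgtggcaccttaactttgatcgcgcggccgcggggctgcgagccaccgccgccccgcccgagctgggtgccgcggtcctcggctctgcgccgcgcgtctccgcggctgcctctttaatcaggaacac

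Of these 3 genes only Sema4c held the AP-1 letters in a promoter window, 22 bases before that window's start site. Another Sema4c window, at chr1:36557508-36557807 on the minus strand, held no match. The Sema4c stretch printed above was taken from the window with the match. A window covered 300 bases, from 250 before to 50 after a RefSeq start, and 49 of the 56 members had at least one. Among all members with a window, 3 of 49 (6.12%) held TGANTCA, against 8.97% of all genes with a window and 5.54% of genes at a value of 50 or more. The other matches lay in a window of Sema4d and in one of Sema6b, each between exons of the gene itself. The letter at the open position was A in Sema4d, where the classical motif has C or G. The related motif TGACGTCA, which cyclic AMP response factors and some AP-1 dimers bind and which also reads the same on both strands, was held by 1 of the 49 members, Epha2, against 2.03% of all genes and 4.05% of genes at a value of 50 or more. The 4 matches are printed with 10 bases on each side, for Sema4c at chr1:36558387-36558413, Sema4d at chr13:51749033-51749059, Sema6b at chr17:56133884-56133910, all on the minus strand, and Epha2 at chr4:141301178-141301205 on the plus strand.
Sema4c: gcgcagacctTGACTCAcgagctgcaa
Sema4d: cccacatcccTGAATCAgcctatatag
Sema6b: acacgtactcTGAGTCAcaaatcctgg
Epha2: gtggtttcggTGACGTCAgcgcagggca

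A match is a run of letters and not a measured binding site, and windows without one say nothing on binding elsewhere. By value the genes with a match were unlike each other. Sema4c was listed at 2 without dox and 100 with dox, and Sema4d at 104 and 219. Sema6b stood at 13 and 23, and Epha2 at 332 and 342.

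Of the 56 members 26 had a value of at least 50 in one or both libraries, 27 had lower values and 3 (Epha3, Ntn4 and Sema3e) were listed at 0 in both. A fold here is the ratio of both values after adding 10 to each, and a gene is called higher or lower at 2-fold or more. Of the 26 members 10 were higher with dox (38.5%) and 1 was lower (3.85%), and the other 15 were within 2-fold. Over all 8547 genes with a value of at least 50 in either library, 9.23% were higher and 5.49% lower. The median log2 ratio of the members was 0.10, beside −0.08 over all genes. With the trend of ratios on transcript length removed, these medians were −0.07 and −0.09. These counts depend on how members entered. Of the 10 higher members 8 had a value under 50 without dox, so they reached 50 only through the library with dox, and among all genes that entered in that way 58.8% were called higher. Of the 18 members already at 50 or more without dox, 2 were higher and 1 lower, against 4.45% and 6.02% of all such genes. With no minimum, 15 of 53 members were higher and 2 lower, beside 9.21% and 5.84% of 13632 genes, but ratios of values this low rest on few units. With a mean of both values of at least 50 as the filter, a choice made after seeing the data, 6 of 21 members were higher and 1 lower, beside 8.08% and 4.57%. The 26 members also had long transcripts, with a median of 5872 bases against 3566 over all genes, and across 8472 genes ratios rose with length (Spearman correlation 0.27, over genes, which are not replicates). Over the 26 members alone this correlation was 0.13. With the trend over all genes removed, 8 of the 26 were higher and 2 lower, beside 719 and 449 of the 8472 genes.

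**Figure D1:**
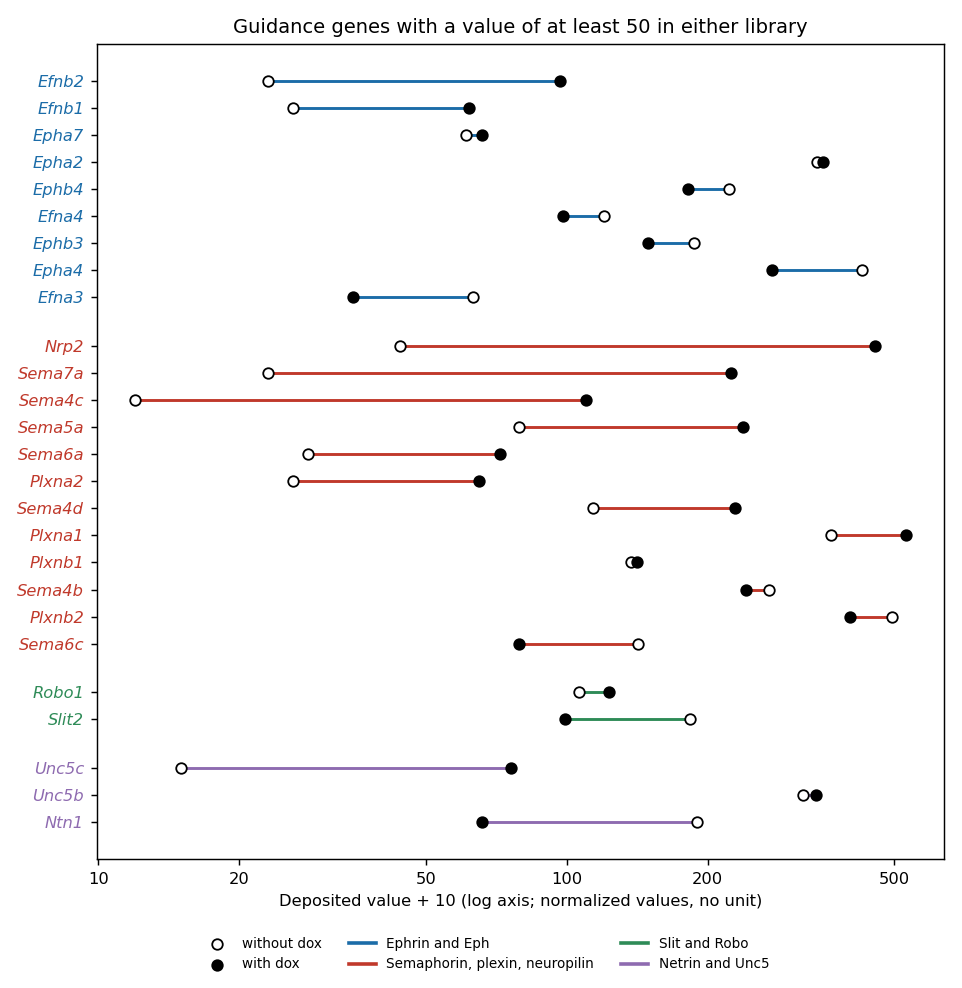
Deposited value plus 10 (log axis) of the 26 guidance genes that reached 50 in either library, without dox (open circles) and with dox (filled circles), joined by a line in the colour of the system. Nrp2, Sema7a and Sema4c have the longest lines to the right, and Ntn1 the longest to the left.

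Semaphorin ligands and receptors held 7 of the 10 higher members. Of the 12 genes of this system with a value of at least 50, 7 were higher, 0 lower and 5 within 2-fold, with a median log2 ratio of 1.16, beside the 9.23% higher and 5.49% lower over all genes. Of the 7, 5 (Sema4c, Sema7a, Sema6a, Nrp2 and Plxna2) were under 50 without dox and entered only through the library with dox, and 58.8% of all genes that entered so were called higher. Over its 27 genes listed above 0 in either library the median was 0.52, with 10 higher and 0 lower.

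Sema7a encodes the semaphorin that is held in the membrane by a lipid anchor and that signals through plexin C1 and integrins. It was listed at 13 without dox and 214 with dox, 9.74-fold higher, which was rank 80 of 8547 genes by ratio. Its plexin, Plxnc1, was at 7 and 4. The ligand was thus high in the library with dox only, while the plexin was near the bottom of the scale in both.

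Among the transmembrane semaphorins of class 4, Sema4c went from 2 to 100. That is 9.17-fold with 10 added to both values. Its log2 ratio was 3.20, and 5.07 or 1.53 with 1 or 50 added instead. Sema4d, whose receptor is plexin B1, stood at 104 and 219, 2.01-fold higher and so just at the threshold. Sema4b, the highest of the class without dox, was at 260 and 232, within 2-fold. The remaining members of the class had lower values, Sema4f at 24 and 38 and Sema4g at 16 and 37. No row of this class had its larger value without dox except Sema4b.

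Sema5a, a transmembrane semaphorin with thrombospondin repeats, was at 69 without dox and 228 with dox, 3.01-fold higher. Its relative Sema5b was at 18 and 13. Class 6, which binds A-type plexins, was split. Sema6a was at 18 and 62, 2.57-fold higher. Sema6c had the larger value without dox, at 132 and 69, a 1.80-fold difference that stayed within the threshold. Sema6b was at 13 and 23, and Sema6d at 1 and 0.

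Secreted class 3 semaphorins stood low in both libraries, and none of the 6 reached 50. Sema3c was listed at 0 without dox and 43 with dox, and Sema3d at 2 and 23. Sema3b was at 26 and 29 and Sema3a at 15 and 11, while Sema3f did not exceed 2. The sum over the class was 43 without dox and 108 with dox, and most of the difference came from Sema3c and Sema3d.

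Neuropilins are co-receptors without a catalytic domain that bind class 3 semaphorins and also vascular endothelial growth factors. Nrp2 had the largest ratio of the 26 members with 10 added to each value, but Sema4c and Sema7a had larger ones with 1 added or with the length trend removed. It stood at 34 without dox and 446 with dox, 10.4-fold higher, and moved from rank 8767 to rank 1328 when the 14261 genes were ordered by value. Nrp1 was far lower, at 2 and 17. Kdr, the vascular endothelial growth factor receptor that works with neuropilins, was at 8 and 3.

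Of the 4 plexins with a value of at least 50, 1 was higher and 0 lower, beside 9.23% higher and 5.49% lower over all genes. Plxna1 was at 357 and 520, 1.44-fold higher, and Plxnb2 at 485 and 393, 1.23-fold lower. Plxnb1 was at 127 and 131. The one plexin past 2-fold was Plxna2, at 16 and 55, a ratio of 2.50-fold from a low start. Plxna2 entered only through the library with dox, and 58.8% of all genes that entered so were called higher. The other 4, Plxna3, Plxna4, Plxnc1 and Plxnd1, had no value above 19. Summed over the 8 plexins the values were 1024 without dox and 1148 with dox, while the 18 semaphorins summed to 713 and 1343.

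In the ephrin system 9 genes had a value of at least 50. Of these 2 were higher, the B-type ephrins Efnb2 and Efnb1, 0 were lower and 7 were within 2-fold, with a median log2 ratio of −0.29, beside the 9.23% and 5.49% over all genes. Both higher genes were under 50 without dox and entered only through the library with dox. Efnb2, known for marking arteries and tissue boundaries, was listed at 13 without dox and 87 with dox, 4.22-fold higher. Efnb1 was at 16 and 52, 2.38-fold higher. Efnb3 was low in both libraries, at 8 and 6.

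The 2 A-type ephrins above 50 had lower values with dox, and neither passed the threshold. Efna4 was at 110 and 88. Efna3 was at 53 and 25, a 1.80-fold lower value that passed 2-fold with 1 added in place of 10. Efna1 was at 11 and 17, Efna2 at 16 and 8, and Efna5 was listed at 0 without dox and 16 with dox. The sums were 190 and 154 over the 5 A-type ephrins, against 37 and 145 over the 3 B-type ephrins.

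No Eph receptor with a value of at least 50, 3 of type A and 2 of type B, passed 2-fold. Most genes did not either, with 9.23% higher and 5.49% lower over all genes. Epha2, a receptor for A-type ephrins with roles in epithelia, was nearly the same in both libraries, at 332 and 342. Epha4, which binds ephrins of both types, was at 418 without dox and 265 with dox, 1.56-fold lower. Epha7 was at 51 and 56. The B-type receptors Ephb4, the receptor of ephrin B2, and Ephb3 were at 212 and 172 and at 177 and 139, so both had the smaller value with dox.

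Among receptors below 50, Epha5 was listed at 0 without dox and 31 with dox and Epha6 at 29 and 1, so each was nearly absent from one library and low in the other. Ephb2 was at 13 and 21, and Ephb6 at 4 in both. Epha1 (5 and 13) shares exonic sequence of up to 156 bases with Zyx on the opposite strand, and Zyx itself was at 19 and 200. Whether reads were counted by strand is not stated, and the part of Zyx reads in the Epha1 value was not tested.

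In the netrin system 3 genes had a value of at least 50. Of these 1 ligand gene and 1 receptor gene passed 2-fold, in opposite directions, beside 9.23% higher and 5.49% lower over all genes. Ntn1, which encodes netrin-1, was the 1 member called lower, at 180 without dox and 56 with dox, 2.88-fold lower. It lies on chromosome 11 from 68209364 to 68400823 in GRCm38, and its rank from the lowest ratio was 128 of 8547. Unc5c, a receptor for netrin-1, was listed at 5 without dox and 66 with dox, 5.07-fold higher, and Unc5b, a related receptor that was already well above it, at 310 and 331. Unc5c thus entered only through the library with dox, and 58.8% of all genes that entered so were called higher. The netrin receptor gene Dcc was listed at 0 in both libraries, whereas Neo1, which encodes the related neogenin, was at 326 and 474.

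The slit system had 2 genes above 50, and neither passed the threshold, beside 9.23% higher and 5.49% lower over all genes. Slit2 was at 173 without dox and 89 with dox, 1.85-fold lower, and its receptor gene Robo1 at 96 and 113. With the trend of ratios on transcript length removed, the log2 ratio of Slit2 went from −0.89 to −1.20, past 2-fold. Slit3, Robo2 and Robo4 had no value above 5.

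Besides Ntn1, then, the lowest ratios among the 26 members with a value of at least 50 were those of Slit2, Efna3, Sema6c and Epha4, all between 1.5-fold and 2-fold lower. At a 1.5-fold threshold 5 of the 26 members were lower and 10 higher, while 17.7% and 16.7% of all genes were. At 4-fold 5 members were higher and 0 lower, beside 3.11% and 0.644% of all genes. None of the 26 was between 1.5-fold and 2-fold higher.

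**Figure D2:**
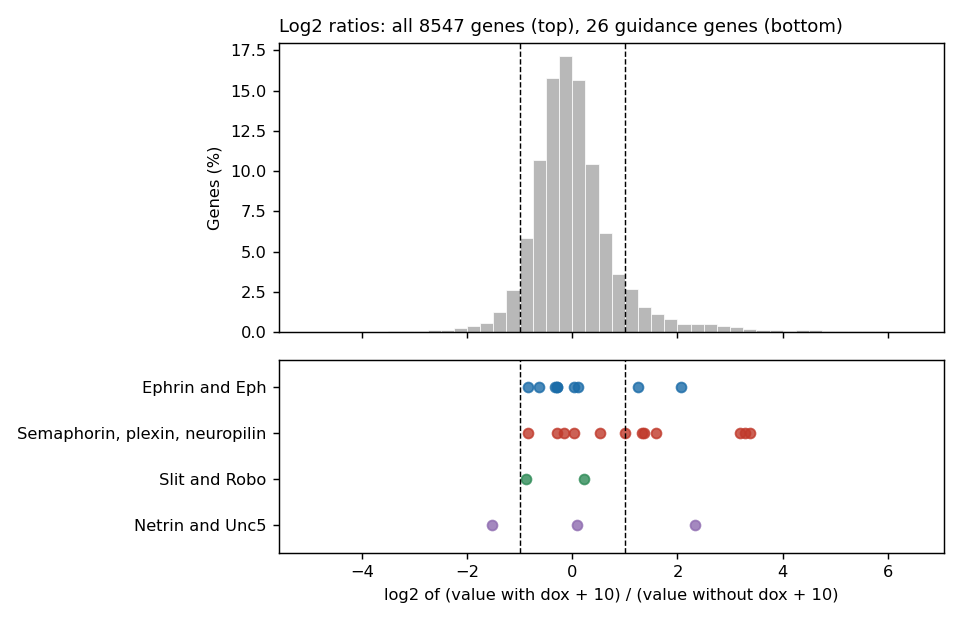
Log2 ratio of the value with dox over that without dox, after adding 10 to each: the upper panel gives the percent of all 8547 genes in steps of 0.25, and each point in the lower panel is 1 of the 26 guidance genes, by system. Dashed lines mark 2-fold. Nrp2, Sema7a and Sema4c lie above 3, and the ephrin genes other than Efnb1 and Efnb2 lie between −1 and 1.

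Levels of different genes were compared per kilobase of the longest GENCODE transcript. This assumes that values scale with length, and across 13517 genes they did so weakly, with a Spearman correlation of 0.08 without dox and 0.17 with dox (genes are not independent replicates). On this scale Epha2 was the highest Eph receptor in both libraries, at 84.8 and 87.4 per kilobase. Epha4 followed at 66.1 and 41.9. Among semaphorins Sema4b led without dox at 65.8 per kilobase, with Sema6c next at 25.9. With dox Sema7a had the highest level at 64.9 per kilobase, followed by Sema4b at 58.7 and Sema4d at 48.9. Among plexins and neuropilins Plxnb2 led without dox at 74.6 per kilobase, and with dox Nrp2 at 66.3, Plxnb2 at 60.5 and Plxna1 at 57.6 lay near each other. Efna4 was the highest ephrin in both, at 68.8 and 55.0 per kilobase. Undivided by length, some orders changed. By deposited value Epha4 (418) stood above Epha2 (332) without dox. With dox Sema4b (232) stood above Sema7a (214), and Plxna1 (520) above Nrp2 (446). The other leading genes named here led by deposited value as well. No error can be put on these levels, so neighbours in these orders are not shown to differ.

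**Figure D3:**
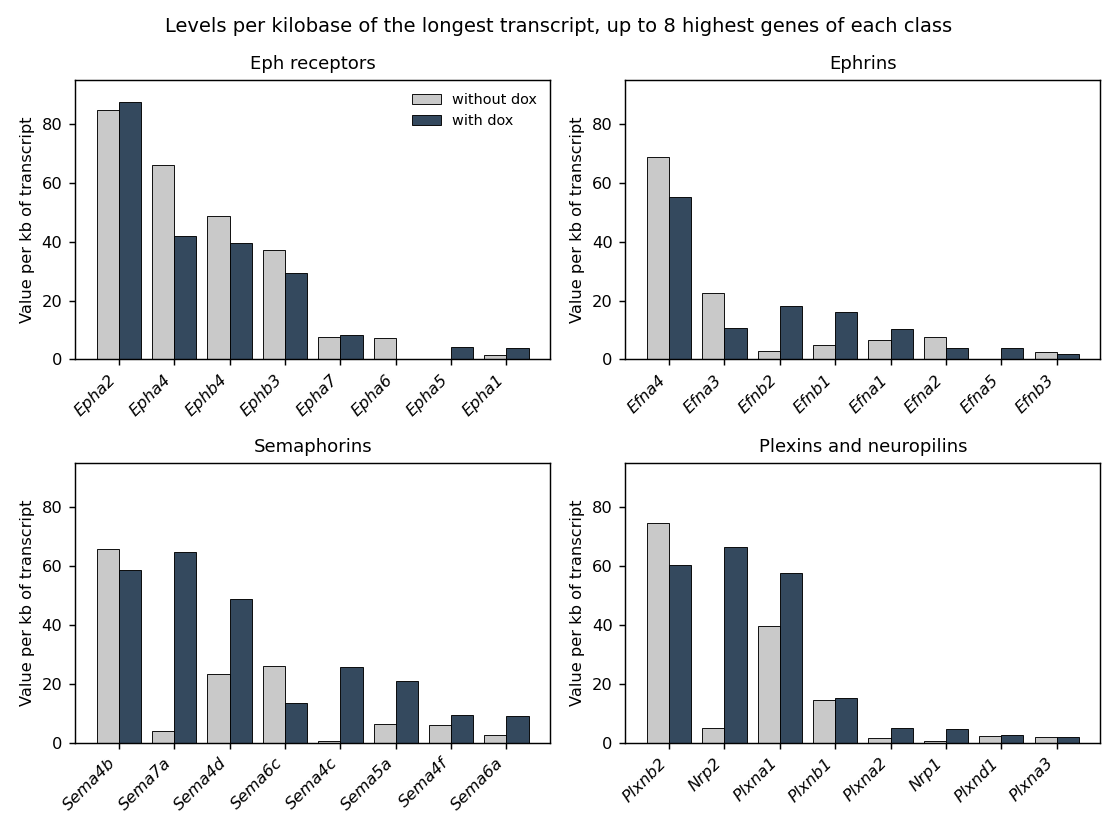
Value per kilobase of the longest transcript without dox (grey) and with dox (dark) for up to 8 genes with the highest level in each of 4 classes, with all axes from 0. The order of Eph receptors and ephrins was led by Epha2 and Efna4 in both libraries, while Nrp2 and Sema7a appear as high bars only with dox.

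The genes that act beside these receptors were taken from a list of 102 co-receptors, adaptors and effectors of the guidance pathways, chosen by known role, of which 99 were in the table and 72 had a value of at least 50. The higher genes numbered 18 (25%) and the lower ones 2 (2.78%), beside the 9.23% and 5.49% over all genes, and 52 lay within 2-fold. The median log2 ratio of the 72 was 0.41. Of the 18 higher genes 8 were under 50 without dox and entered only through the library with dox, where 58.8% of all genes were called higher. In the sub-list of co-receptors and other receptors 4 of 7 were higher, 2 of them from under 50. Met, the hepatocyte growth factor receptor, which associates with B-type plexins, was at 8 and 183. The glypican gene Gpc1, whose product carries heparan sulfate and binds Slit, was at 20 and 196. Ryk, a Wnt receptor that also takes part in axon guidance, was at 142 and 461.

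Effectors of plexins gave 5 of 19 higher (26.3%), 3 of them from under 50 without dox, and 2 lower (10.5%), beside the same 9.23% and 5.49%. Farp1, a guanine nucleotide exchange factor linked to A-type plexins, was at 24 and 195. The collapsin response mediators Dpysl3 and Crmp1, which relay semaphorin signals to the cytoskeleton, were at 54 and 296 and at 21 and 111. Rras, a Ras-family GTPase on which plexins act, was at 23 and 110. Rnd3, which encodes an atypical GTP-binding protein, was at 278 and 61, and Mical1, an actin-oxidising enzyme that binds plexin A, at 76 and 25, so these 2 genes were the lower ones.

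Eph adaptors and effectors gave 5 of 21 higher (23.8%), 2 of them from under 50 without dox, and 0 lower, beside the 9.23% and 5.49% over all genes. The Cdc42 exchange factor gene Itsn2 was at 60 and 231, and Fyn, a Src-family kinase gene, at 22 and 80. The sub-list of Robo, Unc5 and Dcc effectors with general cytoskeletal regulators gave 4 of 25 higher (16%), 1 of them from under 50, and 0 lower. Trio, a dual exchange factor that acts downstream of Dcc, was at 77 and 387.

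**Figure D4:**
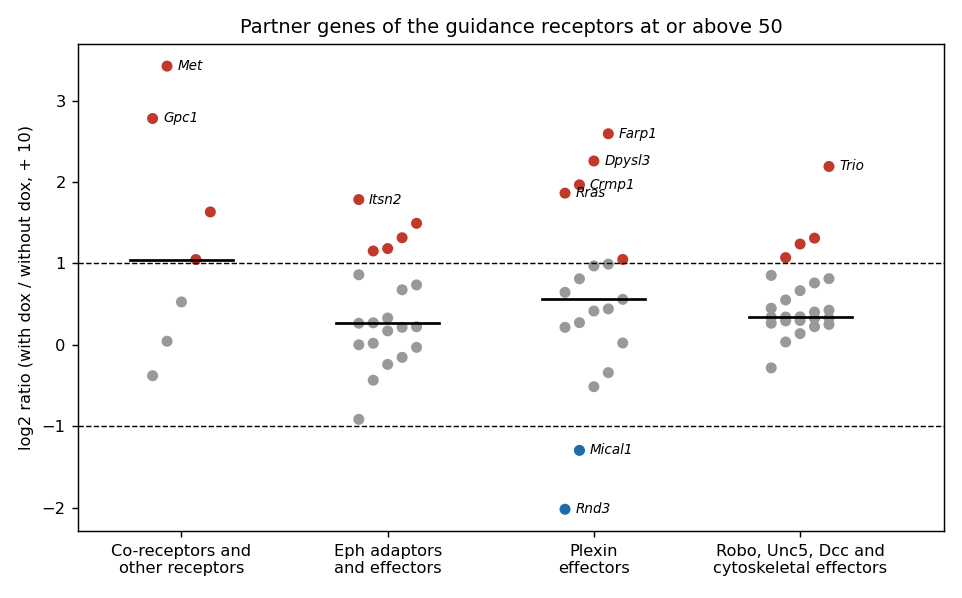
Log2 ratio (with dox over without dox, 10 added to each value) of the 72 partner genes with a value of at least 50, by sub-list, where red points are at least 2-fold higher, blue points at least 2-fold lower and black bars are medians. Met has the highest ratio, and the 2 lower genes are Rnd3 and Mical1.

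Markers of cell types bear on these values, since in bulk RNA fewer cells of a type and less RNA per cell cannot be told apart. All 10 ES cell markers were above 50 in both libraries, the lowest being Utf1 at 270 and 73. Their sum was 18121 without dox and 11375 with dox, with 7 of 10 at least 2-fold lower, beside 5.49% of all genes. The 3 within 2-fold were Pou5f1, at 3230 and 3572, Dppa5a, at 4342 and 3818, and Sox2, at 1042 and 521. With 10 added to each value, Sox2 had a log2 ratio of −0.986 and so was just under the threshold for lower. None of 10 fibroblast markers reached 50, with sums of 39 and 80, and Dcn, Lum and Prrx1 were at 0 in both. The largest differences in value among the 10 were those of Col3a1, at 2 and 39, and Col1a2, at 8 and 19. Twist1, at 12 and 2, and Postn, at 11 and 8, had the smaller value with dox. Of 10 neural markers 6 were in the table, with sums of 788 and 556. Sox1 and Pax6 had no value above 4, while Tubb3 was at 302 and 127 and Nes at 55 and 151. Of 10 endothelial markers 6 were in the table, with sums of 310 and 238, of which Pecam1 was at 205 and 152, Tek at 52 and 64, Vwf at 43 and 8, and Emcn at 0 in both. Of 8 neural crest markers 6 were in the table, with sums of 325 and 482. Among these Ngfr was at 153 and 399, Foxd3 at 117 and 12, and Sox9 at 0 and 8. The part of any of these cell types in the guidance genes was not tested.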

How the data were processed

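Total RNA was extracted with TRIzol from 1 culture per group, and TruSeq libraries were read on a NextSeq 500 instrument (per the labels' protocols). The submitters' processing notes name bcl2fastq, Bowtie2 and RSEM and the build mm10. For the annotation, filter, strand setting and normalization the entry is: not given in the sources used here. Deposited values are whole numbers, treated as a score that the authors normalized and rounded, since both libraries had the quartiles 14, 62 and 184, so depth is unknown and no count model was used. No sample column was left unused (0).

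Groups came from the agent in the labels. The log2 ratio was computed with a pseudocount of 10, a floor of 50 on the larger value and a 2-fold threshold. Positions and lengths came from GENCODE M21 (GRCm38, the assembly of mm10), which matched all 56 members. Promoters of 49 members came from RefSeq (GRCm38.p6). The lowess fraction for the length trend was 0.3. Members with a value of at least 50, those of at least 20 below it, their partners and at most 10 partner genes per direction are named. Members and lists were chosen with earlier results of these data known. The steps were tested on simulated data. Tables were computed in Python 3.11.15 with pandas 2.3.3 and numpy 2.4.6, trends and correlations with statsmodels 0.14.6 and scipy 1.17.1, and plots with matplotlib 3.10.9.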

Additional observations from a re-analysis of the deposited data

How the results depend on the processing

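Of the 10 members called higher, 6 (Nrp2, Sema7a, Sema4c, Unc5c, Efnb2 and Sema5a) kept the call with a pseudocount of 1 or 50, with the median of all genes set to 0 and with the length trend removed, as did Ntn1 among the lower. Efnb1, Sema4d, Sema6a and Plxna2 lost it with a pseudocount of 50, leaving 6 higher, and Sema4d and Plxna2 also with the length trend removed. The count of lower members was 2 of 26 with a pseudocount of 1, beside 608 of 8547 genes. Without the length trend it was 2 of 26, beside 449 of 8472. It was 2 of 35 at a floor of 20 and 2 of 53 at none, beside 723 of 10855 and 796 of 13632 genes. At 1.5-fold it was 5 of 26, beside 1511 of 8547. With a floor of 250 there was 1 higher and 0 lower among 7 members, beside 298 and 147 of 3118 genes. At 4-fold 5 members were higher and 0 lower, beside 3.11% and 0.644% of all genes. With a mean of both values of at least 50, chosen after seeing the data, 6 were higher, and the netrin median was −0.72 over 2 genes. The semaphorin median was 0.52 over all genes above 0 and 0.19 over the 4 genes of at least 250. The ephrin and slit medians, −0.29 and −0.34, became 0.02 and 0.14 over all genes above 0. Higher partner genes numbered 29 of 72 at 1.5-fold, 5 of 72 at 4-fold and 8 of 35 with a floor of 250. Lower ones numbered 1 at 4-fold, with that floor and with a pseudocount of 50. The share of all genes called higher was 16.7% at 1.5-fold and 3.11% at 4-fold. Over all genes, 498 were higher and 171 lower with a pseudocount of 50. No paired analysis was possible because each group was 1 library. The depth is unknown, so counting error of low values has no bound here.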

Other observations

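Some members lie together in the genome. Efna1, Efna3 and Efna4 occupy 66.3 kb of chromosome 3, from 89271733 to 89338028 in GRCm38. Efna1 did not reach 50, so it had no call. Efna3 and Efna4 were within 2-fold, beside 9.23% of all genes higher and 5.49% lower. With a pseudocount of 1, Efna3 passed 2-fold lower. Sema3d, Sema3a, Sema3e and Sema3c lie on chromosome 5 between 12383385 and 17730268. The sum of these 4 genes was 17 without dox and 77 with dox, with Sema3c and Sema3d higher in value, Sema3a lower and Sema3e at 0 in both.

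Exons of several members overlap exons of a gene on the opposite strand, from which reads cannot be separated unless strand was used. Besides Epha1 with Zyx, the longest overlap was 334 bases of Sema4c with the noncoding D430040D24Rik, and Unc5c overlapped Gm15688 by 118 bases. Neither noncoding gene has a row among the values used here, so their part in the values of Sema4c and Unc5c was not tested.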
